A study of Mus musculus with 8 samples.

Results

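The genes described here are the apolipoprotein genes that liver expresses: Apoa1, Apoa2, Apoa4, Apoa5, Apob, Apoc1, Apoc2, Apoc3, Apoe and Apom. They were taken by symbol, whatever their values, and account for 10 of the 25124 rows of the deposited expression table. All 10 passed the filters on low values used below, a mean of 0.5 RPKM (reads per kilobase of row, scaled to the depth of the library) over the RNA-seq or the GRO-seq libraries. The study treated male mice, fasted overnight, with vehicle or with 30 mg/kg GW4064, and took livers 1 h later. GW4064 is a synthetic agonist of the bile acid receptor FXR (gene Nr1h4). RNA-seq, which the study describes as ribosome-depleted, was done on wild-type livers, with 2 libraries per treatment, each pooled from 2 mice. The methods of the study also name an mRNA kit for polyadenylated libraries, so how RNA was selected is not settled. GRO-seq (global run-on sequencing), which reads RNA while polymerase is making it, was done on Fxr-Flox mice, whose Fxr gene is flanked by loxP sites and which GEO lists as WT, and on Fxr-LKO mice, which also carry an albumin-driven Cre that deletes Fxr in hepatocytes. There was 1 GRO-seq library for each genotype and treatment. The vehicle is DMSO in the labels and corn oil in the methods of the study.

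Apolipoproteins are the protein coat of the lipoprotein particles that carry triglyceride and cholesterol through plasma, and hepatocytes make most of them. Some build the particle, some hold or shape high-density lipoprotein (HDL), and some switch plasma lipases on or off or let receptors take the particle up. FXR is known to act on several of these genes in liver, and bile acid signalling is a known brake on plasma triglyceride.

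Library totals rebuilt from the RPKM steps were 13924487 to 14047256 reads in the 4 RNA-seq libraries. The GRO-seq totals were 14173728 (Fxr-Flox vehicle), 10593311 (Fxr-Flox GW4064), 5141655 (Fxr-LKO vehicle) and 5069411 reads (Fxr-LKO GW4064), so genotype and depth cannot be told apart in GRO-seq. The 10 genes held 0.328% to 0.366% of the reads in RNA-seq and 0.378%, 0.453%, 0.632% and 0.590% in the GRO-seq libraries in the same order. The 6 hepatocyte markers summed to 201 to 236 RPKM in RNA-seq and to 399.6 to 593 RPKM in GRO-seq, against 19.3 to 20.6 and 6.48 to 8.84 RPKM for 7 macrophage markers. Nr0b2 (SHP), the standard FXR target, stood at 3.65 and 36.6 RPKM in the vehicle and GW4064 libraries of Fxr-Flox, and at 0.118 and 1.19 RPKM in those of Fxr-LKO. The Nr1h4 row covers the whole gene and does not check the deletion. It read 15.1 and 4.23 RPKM in Fxr-Flox and 16.7 and 20.6 RPKM in Fxr-LKO. The RNA-seq fit, limma on log2(RPKM + 0.1), called 374 of 11408 genes at an adjusted p under 0.05, and this count fell to between 0 and 43 when 1 library was left out.

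Of the genes, 7 lie in 2 clusters (coordinates in mm10). On chromosome 9, Apoa1 (46228630 to 46230469, plus strand), Apoc3 (46233050 to 46235299, minus strand), Apoa4 (46240844 to 46243458, plus strand) and Apoa5 (46268633 to 46271921, plus strand) follow each other. On chromosome 7, Apoc2 (19671579 to 19673920), Apoc1 (19689480 to 19692659) and Apoe (19696244 to 19698398) lie on the minus strand. Apoa2 is on chromosome 1 (171225054 to 171226379, plus strand), Apob on chromosome 12 (7977677 to 8016839, plus strand) and Apom on chromosome 17 (35128997 to 35131801, minus strand). Each row runs over exons and introns together. GENCODE exons covered from 17.4% of the Apoc1 row to 76.7% of the Apoa5 row, and Apob, with 29 exons over 39.2 kb, was 35.5% exonic. Antisense or unclassified GENCODE genes overlap Apoa4 (Gm47528 and Gm10680) and Apoa5 (Gm47544), and the row of Gm44805 spans Apoc2, so reads in these 3 rows may belong to the other gene as well. Whether the counting used strand is not given in the sources used here.

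Promoters are shown for the 3 chromosome 9 genes with a matching window and for Apob, to give the sequence at the starts of the genes described most below. Motif matches in them are a description, and their part in any value was not tested. RefSeq promoter windows (build GRCm38.p6) matched 8 of the 10 genes, all but Apoc1 and Apoc3, and for 7 of them, all but Apoc2, the start site was that of the row. Only those 7 were searched. Motifs were searched on both strands in the 250 bases before the start. They were the TATA box TATAAA, a direct repeat of nuclear receptor half-sites with a spacer of 1 base (DR-1, NGNTCANNGNTCA), the inverted repeat that FXR binds (IR-1, NGNTCANTGANCN), an HNF4 core (CAAAGTNCA), a C/EBP site (TTGCNNAA) and a GC box (GGGCGG). The DR-1 and HNF4 letters can overlap each other. The IR-1 letters were in 0 of the 7 windows and in 0.274% of all 32851 promoter windows. These letters are a strict form of the repeat, and a site that departs from them at any fixed base is missed. The repeat in the study's own primers for an FXR-bound enhancer departs from them. The count of 0 thus does not mean that the windows lack FXR sites. A DR-1 match was in the Apoa1 window (position -49 from the start, 1.01% of all windows) and an HNF4 core in the Apoa4 window (position -182, 1.19% of all windows). TATA boxes were in the Apoa2, Apoa5 and Apob windows (12.4% of all windows), at position -212 in Apoa2, -56 in Apoa5 and -60 in Apob, and Apob also held a C/EBP site at position -90 (9.56% of all windows). No GC box was in the 7 windows (32.7% of all windows). The windows of 4 genes are given 5′ to 3′ on the strand of the gene, with motif matches in capitals. They are chromosome 9, 46228380 to 46228629 (Apoa1), 46240594 to 46240843 (Apoa4) and 46268383 to 46268632 (Apoa5), and chromosome 12, 7977427 to 7977676 (Apob), all on the plus strand.
Apoa1: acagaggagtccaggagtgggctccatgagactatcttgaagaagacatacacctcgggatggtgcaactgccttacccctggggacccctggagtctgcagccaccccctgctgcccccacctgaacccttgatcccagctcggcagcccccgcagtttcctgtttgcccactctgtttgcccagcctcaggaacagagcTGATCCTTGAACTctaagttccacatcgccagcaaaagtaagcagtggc
Apoa4: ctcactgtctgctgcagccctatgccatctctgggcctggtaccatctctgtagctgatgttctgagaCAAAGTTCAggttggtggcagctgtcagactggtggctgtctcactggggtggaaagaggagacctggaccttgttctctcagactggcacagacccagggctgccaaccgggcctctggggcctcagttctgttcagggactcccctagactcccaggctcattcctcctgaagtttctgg
Apoa5: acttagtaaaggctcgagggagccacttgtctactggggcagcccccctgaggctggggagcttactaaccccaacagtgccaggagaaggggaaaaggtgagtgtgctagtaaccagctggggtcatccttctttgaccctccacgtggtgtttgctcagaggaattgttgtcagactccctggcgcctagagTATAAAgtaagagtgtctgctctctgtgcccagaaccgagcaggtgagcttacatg
Apob: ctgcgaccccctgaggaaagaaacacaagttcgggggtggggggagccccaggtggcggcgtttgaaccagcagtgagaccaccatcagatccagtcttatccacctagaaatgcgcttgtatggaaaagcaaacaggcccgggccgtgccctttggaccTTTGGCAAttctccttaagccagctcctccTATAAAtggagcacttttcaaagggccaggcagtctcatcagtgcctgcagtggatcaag

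In RNA-seq, the 10 genes spanned more than an order of magnitude in level per length. In vehicle livers the order of mean RPKM was Apoe (187), Apoa1 (137), Apoa2 (97.3), Apoa5 (60.3), Apob (51.5), Apoa4 (40.3), Apoc3 (33.1), Apoc1 (31.3), Apom (14.7) and Apoc2 (13.5). No 2 neighbours in this order overlapped between the vehicle libraries. In the GW4064 libraries, Apob overlapped Apoa4, and Apoc3 overlapped Apoc1. Apoe ranked 2 to 3 and Apoa1 ranked 4 among the 23772 rows of at least 300 bases in every RNA-seq library. Because rows include introns, these levels are not those of mature mRNA alone.

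**Figure D1:**
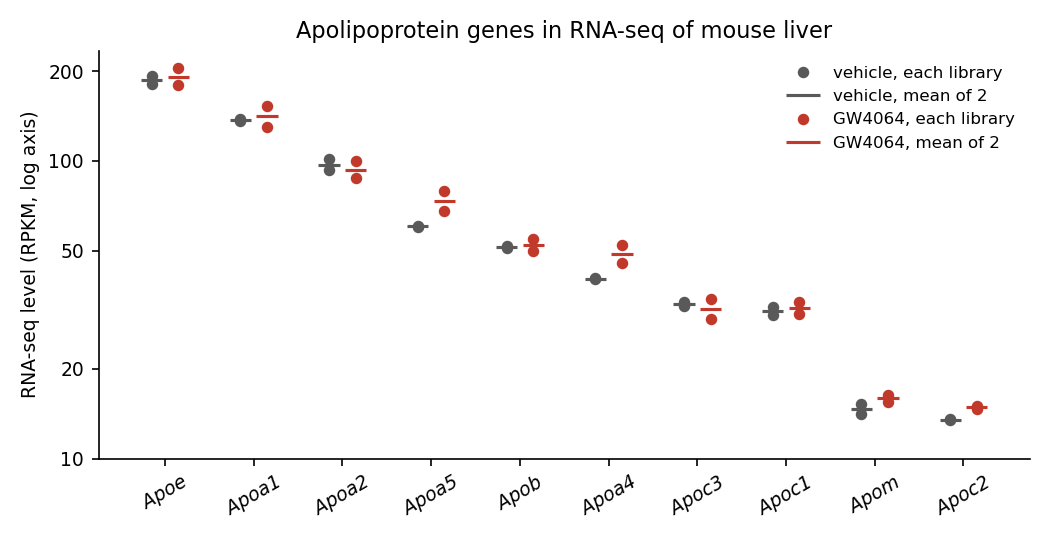
RNA-seq level in RPKM on a log axis for the 10 apolipoprotein genes, ordered by their mean in vehicle livers. Points are libraries (2 vehicle, 2 GW4064) and short lines are means of 2. The GW4064 points lie above both vehicle points for Apoa5, Apoa4, Apom and Apoc2 and straddle or overlap them for the other 6 genes.

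No apolipoprotein gene passed the RNA-seq test of GW4064 against vehicle: 0 of 10 were called, beside 3.28% of all genes tested (limma, Benjamini-Hochberg over 11408 genes). At an unadjusted p under 0.05 there were 2 of them, Apoa4 and Apoa5, beside 2416 of all 11408 genes tested. With limma-voom on rebuilt reads, 0 were called and 2 were at an unadjusted p under 0.05, beside 2741 of 11408 genes. The fitted log2 fold changes ran from -0.06 (Apoa2) to 0.28 (Apoa5), with a median of 0.04 against -0.003 over all genes tested. The widest 95% intervals reached down to 0.796-fold and up to 1.46-fold. An exact permutation test of 2 against 2 cannot give a p below 0.333. In 4 of the 10 genes both GW4064 libraries were above both vehicle libraries, which was so for 26% of all genes tested.

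The HDL genes were nearly level between treatments in RNA-seq. Apoa1, the main structural protein of HDL, stood at 136 and 139 RPKM with vehicle and at 130.4 and 153 RPKM after GW4064 (log2 fold change of 0.04 ± 0.10 SE, adjusted p = 0.85, limma). Apoa2, the next most abundant HDL protein, stood at 92.9 and 102 RPKM with vehicle and 87.5 and 99.6 RPKM with GW4064 (-0.06 ± 0.10, adjusted p = 0.779). The ranges of the 2 treatments overlapped in both genes, and the GW4064 libraries of Apoa1 differed from each other more than the group means did. Apom, the carrier of sphingosine-1-phosphate on HDL, read 14.1 and 15.3 RPKM with vehicle and 15.5 and 16.4 RPKM with GW4064 (0.12 ± 0.07, adjusted p = 0.437). Its groups did not overlap but came within a few percent of each other.

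Apoa4 and Apoa5, neighbours on chromosome 9, had the largest differences among the 10, and neither passed the test. Apoa5, which promotes plasma triglyceride hydrolysis, read 60.1 and 60.5 RPKM with vehicle and 68.0 and 79.2 RPKM with GW4064. The fitted difference was 0.28 on the log2 scale (SE 0.09, 95% interval 0.02 to 0.55, adjusted p = 0.218, limma). Apoa4, a protein of triglyceride-rich particles and HDL that fasting and fat feeding are known to induce, read 40.2 and 40.3 RPKM with vehicle and 45.2 and 52.3 RPKM with GW4064. That difference was 0.27 on the log2 scale (SE 0.09, interval 0.02 to 0.53, adjusted p = 0.219). In both genes the vehicle libraries were close to each other and the GW4064 libraries lay further apart than the nearest libraries of the 2 treatments did. GW4064 replicate 2 was the higher of the 2 GW4064 libraries in both genes. Without it the log2 fold changes were 0.17 for Apoa4 and 0.17 for Apoa5, and without GW4064 replicate 1 they were 0.38 and 0.39. After quantile normalization they were 0.14 and 0.16. In 9 of the 10 genes GW4064 replicate 2 was above GW4064 replicate 1. This was so for 6318 of the 11408 genes tested and for 115 of 146 other rows with more than 0.3 reads per base. The median difference was 0.19 on the log2 scale in the 10 genes, beside 0.02 over all genes tested and 0.08 over those 146 rows. The part of GW4064 replicate 2 in the 2 results was not tested beyond leaving it out.

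The lipase cofactors and inhibitors differed little between treatments in RNA-seq. Apoc2, the cofactor that lipoprotein lipase needs, read 13.4 and 13.6 RPKM with vehicle and 15.1 and 14.7 RPKM with GW4064, a difference of 0.14 on the log2 scale (SE 0.05, interval -0.01 to 0.29, adjusted p = 0.257, limma). Its groups did not overlap, and its row shares bases with Gm44805. Apoc3, an inhibitor of triglyceride clearance, read 33.5 and 32.7 RPKM with vehicle and 29.5 and 34.3 RPKM with GW4064 (-0.06 ± 0.09, adjusted p = 0.776). Apoc1, known as an inhibitor of cholesteryl ester transfer and of lipases, read 30.3 and 32.2 RPKM with vehicle and 30.6 and 33.6 RPKM with GW4064 (0.04 ± 0.08, adjusted p = 0.836). For Apoc3 and Apoc1 the groups overlapped.

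The particle builder and the main receptor ligand were also level in RNA-seq. Apob, the scaffold of very low density lipoprotein, read 51.9 and 51.0 RPKM with vehicle and 49.8 and 54.7 RPKM with GW4064 (0.02 ± 0.07, adjusted p = 0.903, limma). Apoe, the ligand through which receptors clear remnant particles, read 181 and 192 RPKM with vehicle and 180 and 205 RPKM with GW4064 (0.04 ± 0.09, adjusted p = 0.854). Both genes had overlapping groups.

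**Figure D2:**
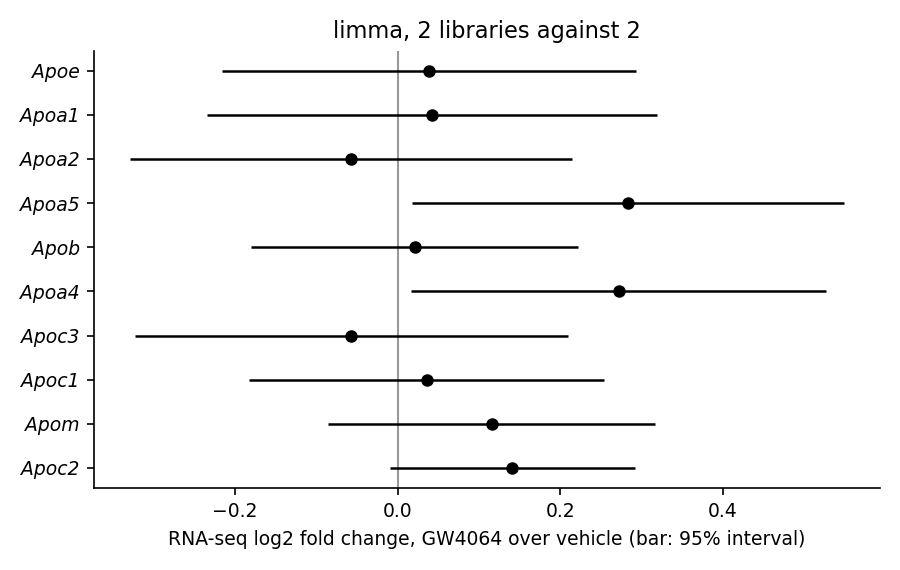
RNA-seq log2 fold change of GW4064 over vehicle for each gene (points) with its 95% interval (bars), from limma on log2(RPKM + 0.1). The intervals of Apoa4 and Apoa5 lie just above 0, from 0.02, and those of the other 8 genes include 0.

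The genes around these pathways were read in the same fit from 6 lists. Of 7 tested genes among the other apolipoproteins and HDL-borne proteins, 0 rose and 0 fell (3 at an unadjusted p under 0.05; limma-voom called 2 lower), with a median log2 fold change of 0.07. The largest differences were in Pon1, an HDL-bound esterase (-0.46, adjusted p = 0.0679), and Apoh, a phospholipid-binding plasma protein (-0.44, adjusted p = 0.0581), neither past the threshold. Of 9 lipoprotein assembly genes, 0 rose and 0 fell (1 at an unadjusted p under 0.05; limma-voom called 1 lower). The 2 with the largest differences were Mia2, a cargo receptor for secretion (-0.29, adjusted p = 0.0954), and Apobec1, the editing enzyme of Apob mRNA (0.25, adjusted p = 0.354).

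Genes were called among the lipases that act on the particles and among their receptors. Of 10 genes for lipases, LCAT and their regulators, 2 rose and 0 fell: Lipg, endothelial lipase, at 3.75 and 3.16 RPKM with vehicle and 6.75 and 6.26 RPKM after GW4064 (log2 fold change of 0.90, adjusted p = 0.0429, limma), and Lipc, hepatic lipase (0.57, adjusted p = 0.049). Among the receptors and lipid exporters, Scarb1, the HDL receptor SR-BI, rose from 3.81 and 3.48 RPKM with vehicle to 7.92 and 7.10 RPKM with GW4064 (1.02, adjusted p = 0.0266). Lipc and Lipg lost their calls under small changes of setting, for example a filter at a mean of 0.1 RPKM. The call of each of these 3 genes was lost without any 1 of the 4 libraries, with adjusted p from 0.115 (Lipg) to 0.252 (Lipc).

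Of 20 transcription factors known to act on apolipoprotein genes, 1 rose and 3 fell. Nr0b2 rose from 6.83 and 4.04 RPKM to 31.5 and 30.5 RPKM (log2 fold change 2.54, adjusted p = 0.0368, limma), and Nr1h4 fell from 9.09 and 9.38 RPKM to 3.90 and 3.72 RPKM (-1.26, adjusted p = 0.0149). Rxra, the dimer partner of FXR (-0.49, adjusted p = 0.0358), and Ppara, the fasting-activated fatty acid receptor (-0.46, adjusted p = 0.0492), fell. Without any 1 library the calls of Nr1h4, Rxra and Ppara were lost (adjusted p from 0.0753 for Nr1h4 to 0.201 for Ppara), and that of Nr0b2 was lost without 3 of the 4, vehicle replicate 1 being the exception. Of 14 other plasma proteins made by hepatocytes, 0 rose and 0 fell (6 at an unadjusted p under 0.05; limma-voom called 2 higher and 2 lower). Gc, the vitamin D carrier (-0.52, adjusted p = 0.0798), and Ttr, the thyroid hormone carrier (-0.51, adjusted p = 0.0612), differed most.

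Of 12 rows that overlap a member or lie next to one, 11 were tested and 0 were called (2 at an unadjusted p under 0.05; limma-voom called 1 higher). The row that limma-voom called was Zpr1, a zinc finger gene 1143 bases past the end of Apoa5. It read 8.53 and 7.11 RPKM with vehicle and 11.6 and 11.4 RPKM after GW4064 (log2 fold change of 0.55, adjusted p = 0.0999 with limma). Apoc4, between Apoc2 and Apoc1, read 24.8 and 24.6 RPKM with vehicle and 24.8 and 27.9 RPKM with GW4064 (0.09, adjusted p = 0.581). Sik3, before Apoa1, differed by 0.06 and Tomm40, beside Apoe, by 0.21 (adjusted p = 0.67 and 0.195).

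In GRO-seq, 7 of the 10 genes were in the densest class of rows, with over 0.3 reads per base on average over the libraries, and Apoa4 varied most between libraries. With 1 library per genotype and treatment there is no replicate check, so the values below compare libraries, and their intervals cover counting error only. Apoe read 178 RPKM in Fxr-Flox vehicle, 232 in Fxr-Flox GW4064, 325 in Fxr-LKO vehicle and 331 in Fxr-LKO GW4064, and ranked 4 in each library among rows of at least 300 bases. Apoa1 read 142, 171, 345 and 333 RPKM in the same order of libraries. Apoa2 read 144, 172, 278 and 279 RPKM. These 3 genes were low in the Fxr-Flox libraries and higher in both Fxr-LKO libraries, where vehicle and GW4064 were close to each other.

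Apob read 63.2 RPKM in Fxr-Flox vehicle, 74.0 in Fxr-Flox GW4064, 96.1 in Fxr-LKO vehicle and 91.2 in Fxr-LKO GW4064. Apoc1 read 35.3, 39.8, 52.3 and 53.4 RPKM, and Apoc3 read 34.9, 29.9, 48.7 and 46.2 RPKM. All 3 were lower in both Fxr-Flox libraries than in both Fxr-LKO libraries. Apoa5 departed from this and read 68.2, 85.1, 72.8 and 66.0 RPKM, highest with GW4064 in Fxr-Flox. Apom read 5.26, 5.05, 8.46 and 8.16 RPKM. Apoc2 read 8.44, 11.7, 12.6 and 9.27 RPKM, with the Fxr-Flox vehicle and Fxr-LKO GW4064 libraries lowest.

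Apoa4 had the widest span. It read 8.02 RPKM in Fxr-Flox vehicle (297 rebuilt reads), 28.0 in Fxr-Flox GW4064 (774 reads), 107 in Fxr-LKO vehicle (1436 reads) and 38.6 in Fxr-LKO GW4064 (512 reads). Its rank among rows of at least 300 bases went from 585 to 140 in Fxr-Flox and from 19 to 101 in Fxr-LKO. The lowest library was thus Fxr-Flox vehicle, the highest Fxr-LKO vehicle, and the GW4064 libraries of both genotypes lay between them. In RNA-seq of wild-type livers it was at 40.2 to 52.3 RPKM.

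**Figure D3:**
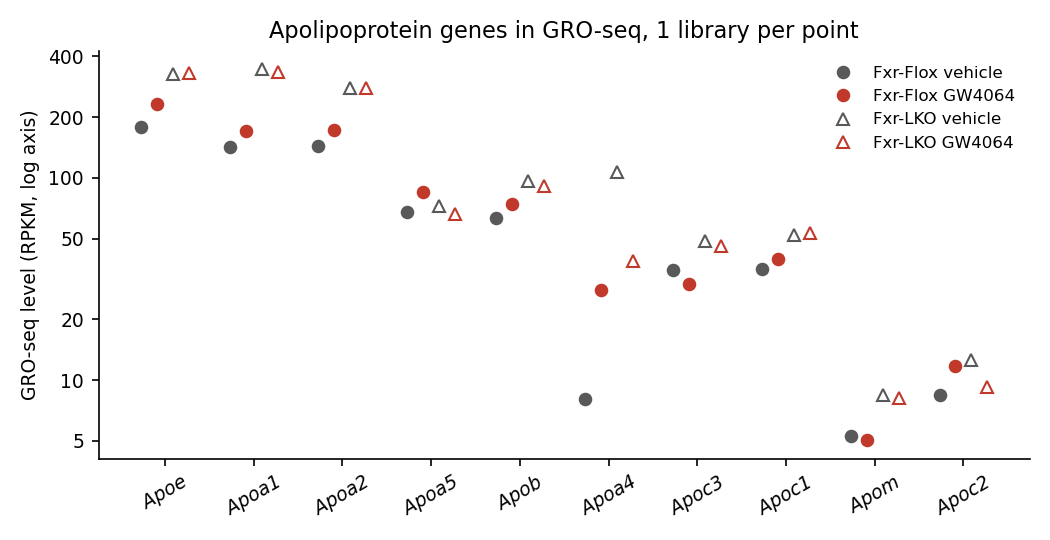
GRO-seq level in RPKM on a log axis for the 10 apolipoprotein genes, each point 1 library (circles Fxr-Flox, triangles Fxr-LKO; grey vehicle, red GW4064). Apoa4 spans 8.02 to 107 RPKM, while Apoe, Apoa1 and Apoa2 form a low pair (Fxr-Flox) and a high pair (Fxr-LKO).

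In Fxr-Flox livers, GW4064 over vehicle was above 0 on the log2 scale for 8 of the 10 genes, beside 38.0% of all rows, and above the median of rows of like density for 4 of them. Of the 10, 1 was at least 2-fold higher and 0 were at least 2-fold lower, beside 3.54% and 2.61% of 10169 rows. This was Apoa4, with a log2 ratio of 1.79 (3.46-fold, counting interval 3.05 to 4.0). The next were Apoc2 at 0.47 (interval 0.23 to 0.72), Apoe at 0.38 (0.33 to 0.44) and Apoa5 at 0.32 (0.25 to 0.39). Apoc3 was lower with GW4064, at -0.22 (-0.36 to -0.08), and Apom was at -0.06 (-0.37 to 0.25). The median of the 10 was 0.26, against -0.09 over all rows.

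In Fxr-LKO livers the same contrast gave values near 0 for most of the genes. None of the 10 was at least 2-fold higher and 1 was at least 2-fold lower, beside 2.09% and 1.81% of rows. That gene was again Apoa4, with a log2 ratio of -1.47 (interval -1.62 to -1.32), 120 from the bottom of 10169 rows. Apoc2 was at -0.44 (-0.81 to -0.08) and Apoa5 at -0.14 (-0.26 to -0.02). The other 7 lay between -0.08 and 0.03. The median of the 10 was -0.06, against -0.02 over all rows.

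The Apoa4 ratios in the 2 genotypes differed by 3.25 on the log2 scale, which ranked 99 from the top of 10169 rows. Apoc2 differed by 0.91 (rank 589) and Apoa5 by 0.46 (rank 1508), and Apom by -0.01. With 1 library each, none of these differences was tested.

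**Figure D4:**
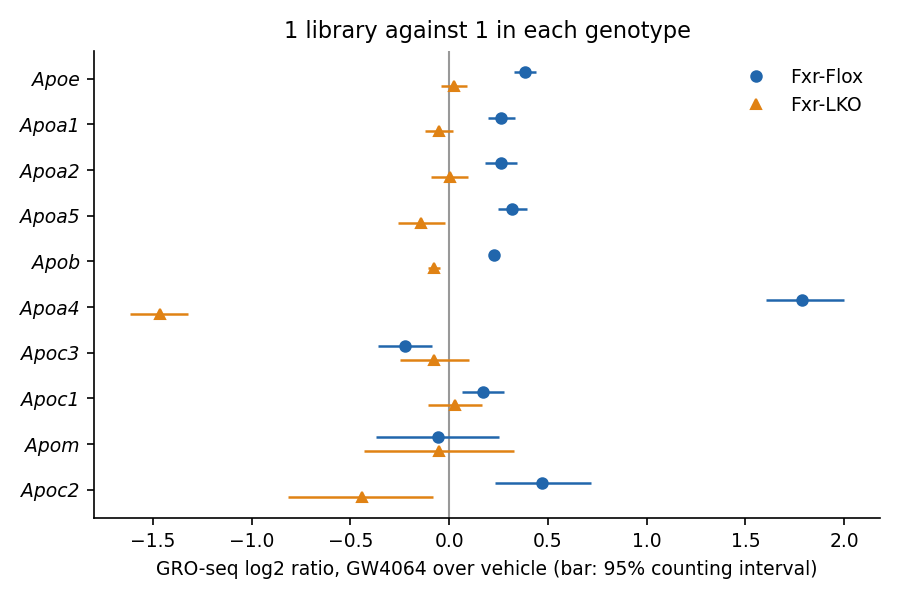
GRO-seq log2 ratio of GW4064 over vehicle in Fxr-Flox (circles) and Fxr-LKO (triangles) for each gene, with 95% counting intervals as bars. Apoa4 lies at 1.79 in Fxr-Flox and at -1.47 in Fxr-LKO, and the other 9 genes lie between -0.44 and 0.47.

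Between the genotypes, all 10 genes had more RPKM in Fxr-LKO than in Fxr-Flox with vehicle, beside 41.1% of all rows, and 7 of them lay above the median of rows of like density. Of the 10, 2 were at least 2-fold higher and 0 at least 2-fold lower, beside 2.7% and 2.69% of rows. Those 2 were Apoa4, at a log2 ratio of 3.72 (13.2-fold, counting interval 11.8 to 15.2), and Apoa1, at 1.28 (2.43-fold, 2.32 to 2.55). Apoa2 was at 0.95 and Apoe at 0.87, and Apoa5, at 0.09 (0.00 to 0.19), was the lowest. The median of the 10 was 0.64, against -0.07 over all rows. With GW4064, 8 of the 10 were above 0, beside 50.3% of rows, and 7 lay above the median of rows of like density, and 0 were at least 2-fold higher or lower, beside 3.48% and 4.76% of rows. There Apoa1 was at 0.96, Apoa2 at 0.69, Apom at 0.68 and Apoa4 at 0.47 (0.30 to 0.63), while Apoa5 (-0.37) and Apoc2 (-0.34) were lower in Fxr-LKO. These 2 comparisons and the 2 above share libraries.

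How densely a row was covered moved with these ratios, and 7 of the 10 genes were in the densest class. Over rows of at least 300 bases other than the members, the median log2 ratio of Fxr-LKO over Fxr-Flox with vehicle was -0.11 for rows with under 0.01 reads per base, 0.04 for 0.03 to 0.1, 0.25 for 0.1 to 0.3 and 0.58 for the 87 rows over 0.3. For GW4064 over vehicle in Fxr-Flox the same classes gave -0.17, 0.03, 0.23 and 0.28, and in Fxr-LKO, where both libraries had nearly the same depth, the densest class gave -0.02. For Fxr-LKO over Fxr-Flox with GW4064 the median went from -0.005 in the thinnest class to 0.40 in the densest. With vehicle, Fxr-Flox and Fxr-LKO had rebuilt totals of 14173728 and 5141655 reads, and with GW4064 they had 10593311 and 5069411 reads. Against rows of like density, the median of the 10 genes was -0.012 in place of 0.26 for GW4064 in Fxr-Flox, and 0.34 in place of 0.64 for the genotypes with vehicle. The part of depth in the ratios of dense rows was not tested.

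The members' own reads per base, unlike RPKM, are not scaled to depth. Apoe had 2.52 and 2.46 reads per base in the vehicle and GW4064 libraries of Fxr-Flox and 1.67 and 1.68 in those of Fxr-LKO, although its RPKM was higher in Fxr-LKO. Apoa1 had 2.01, 1.81, 1.77 and 1.69 reads per base in the same order. With vehicle, 9 of the 10 genes had fewer reads per base in Fxr-LKO than in Fxr-Flox. The exception was Apoa4, with 0.114 reads per base in Fxr-Flox and 0.549 in Fxr-LKO. The vehicle totals were 5141655 reads in Fxr-LKO and 14173728 in Fxr-Flox. Any row therefore has fewer reads per base in Fxr-LKO unless its RPKM ratio outweighs this gap, so the count of 9 is no result about these genes. Relative to rows of like density, Apoa4 stood at 1.56 for GW4064 in Fxr-Flox, at -1.47 in Fxr-LKO and at 3.47 for the genotypes with vehicle. With vehicle, Apoa1 was 0.70 above the median of the densest class and Apoa5 was 0.48 below it. Apob (0.03) and Apoc1 (-0.01) were level with it. This class has no upper bound. Mean GRO-seq reads per base were 1.82 for Apoa1, 1.68 for Apoa2 and 2.08 for Apoe. They were 0.644 for Apoa5, 0.659 for Apob, 0.365 for Apoc1 and 0.324 for Apoc3. Density was thus not matched within the class, and its part in these offsets was not tested.

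**Figure D5:**
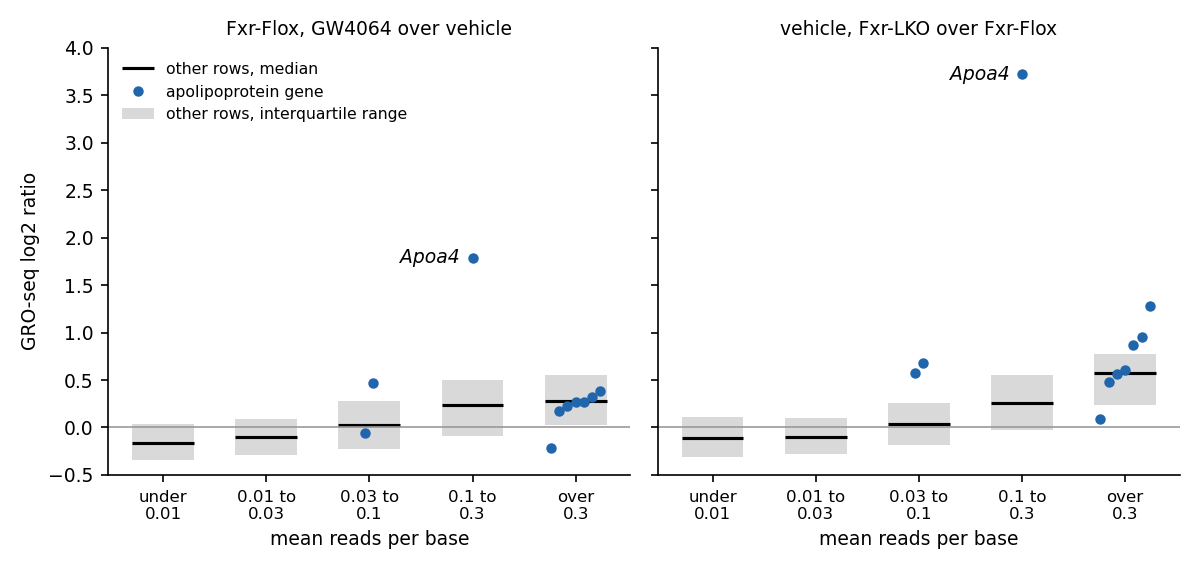
GRO-seq log2 ratios by class of mean reads per base, for GW4064 over vehicle in Fxr-Flox (left) and Fxr-LKO over Fxr-Flox with vehicle (right). Grey boxes are the interquartile range and black lines the median of the other rows of at least 300 bases, and blue points are the 10 genes. The medians climb to 0.28 and 0.58 in the densest class, where 7 of the genes lie, and Apoa4 lies far above its class in both panels.

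Apoa4 is best known from intestine, so enterocyte markers were read beside it. The 6 markers summed to 2.45, 3.0, 3.45 and 1.45 RPKM in the GRO-seq libraries, in the order Fxr-Flox vehicle and GW4064, then Fxr-LKO vehicle and GW4064, and to 5.20 to 6.20 RPKM in RNA-seq. Fabp2, a fatty acid binding protein, gave nearly all of it. Alpi was listed at 0 in all 8 libraries, and Sis, Cdh17, Lct and Vil1 did not exceed 0.07 RPKM in any. In bulk liver, fewer cells of a type and less RNA per cell cannot be told apart.

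The neighbours of Apoa4 did not share the size of its GRO-seq ratios, though Apoa5 had the same direction as Apoa4 in both genotypes. Apoc3, 5545 bases before it, had log2 ratios of -0.22 in Fxr-Flox and -0.07 in Fxr-LKO, and Apoa5, 25175 bases after it, 0.32 and -0.14. Zpr1, past Apoa5, had 0.43 in Fxr-Flox, 0.84 in Fxr-LKO and -1.21 for Fxr-LKO over Fxr-Flox with vehicle.

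RNA-seq and GRO-seq levels of the genes were set side by side in vehicle livers, although the assays used different mice and were scaled separately. The RNA-seq over GRO-seq ratio (wild-type over Fxr-Flox) was 5.02 for Apoa4, 2.79 for Apom and 1.60 for Apoc2. For the other 7 it was 0.677 to 1.05, lowest for Apoa2 and highest for Apoe. Over 10083 rows at 0.5 RPKM or more in both assays the median was 1.32, with an interquartile range of 1.02 to 1.81. Apoa4 and Apom were thus above this range, Apoc2 and Apoe within it, and the other 6 below it. Each ratio divides by 1 GRO-seq library, and for Apoa4 that library was its lowest, at 8.02 RPKM. With GW4064, Apoa4 read 48.8 RPKM in RNA-seq (mean of the libraries) and 28.0 RPKM in Fxr-Flox GRO-seq, levels much closer together. The ratio of 5.02 is therefore not read as a trait of Apoa4.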

How the data were processed

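RNA-seq of wild-type livers (2 libraries per treatment) and GRO-seq of Fxr-Flox and Fxr-LKO livers (1 library per genotype and treatment) were deposited as 1 table with a row per gene. The authors mapped reads to mm10 with STAR 2.7.3a and quantified rows with HOMER, with bcl2fastq and FastQC before, and deposited the values as RPKM over the whole row, introns included. The authors' limit on reads per position, if any, is not given in the sources used here. Groups came from the sample labels. Whether GRO-seq nuclei were pooled over mice is not given in the sources used here.

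Whole reads were rebuilt from RPKM, row length and a library total that made low values whole (100% of values tested within 0.15 read in each library). Fold changes are on the log2(RPKM + 0.1) scale, which understates those of low genes. RNA-seq was tested with limma 3.58.1 in R 4.3.3 (trend on, mean of at least 0.5 RPKM, Benjamini-Hochberg over 11408 genes), in place of the count test that the authors ran, since the deposited values are not counts. The fit was also run on simulated counts with the same dispersion for every gene and no shift of a whole library. That run does not check the calls in these data. p-values measure the spread between pooled libraries. GRO-seq ratios were not tested: intervals are exact binomial 95% intervals on rebuilt reads (scipy 1.17.1) and cover counting error only, with reads taken as independent. Density classes used rows of at least 300 bases. Rows of like density are the rows of the same class, and the densest class has no upper bound.

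Named genes were all 10 members, rows overlapping or next to them, Nr1h4 and Nr0b2, and of each other list the called genes (at most 6), otherwise the 2 with the largest difference. The members and lists were chosen with earlier results of these data known. The count over the list of receptors and lipid exporters, and 1 gene of it, are not reported here. Exons came from GENCODE, promoters from RefSeq. Alternatives were other pseudocounts, filters, scalings, thresholds and limma options, limma-voom, a replicate block and each library left out.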

Additional observations from a re-analysis of the deposited data

Results flagged for a closer look

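For 5 of the 10 genes the GRO-seq ratio of GW4064 over vehicle lay above 0 in Fxr-Flox and below 0 in Fxr-LKO. Of all 10169 rows, 38.0% were above 0 in Fxr-Flox and 45.5% in Fxr-LKO. The share of rows with both signs was not counted, so the count of 5 is not read as particular to these genes. Each direction rests on 1 library against 1, so the difference between the genotypes was not tested. It was 3.25 on the log2 scale for Apoa4 (1.79 in Fxr-Flox and -1.47 in Fxr-LKO), 0.91 for Apoc2 (0.47 and -0.44) and 0.46 for Apoa5 (0.32 and -0.14). For Apoa1 it was 0.32 (0.26 and -0.05) and for Apob 0.30 (0.23 and -0.08). In Fxr-LKO the counting interval of Apoa1 includes 0, from -0.12 to 0.02. Set against rows of like density, Apoa1 and Apob were below 0 in both genotypes (-0.01 and -0.05 in Fxr-Flox, -0.03 and -0.05 in Fxr-LKO). Apoa4, Apoc2 and Apoa5 remained on opposite sides of 0. Apoa5 did so narrowly, at 0.04 in Fxr-Flox and -0.12 in Fxr-LKO. The counting interval of its Fxr-Flox ratio, 0.25 to 0.39, is wider than that 0.04, so its sign there is not settled.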

How the results depend on the processing

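The number of apolipoprotein genes called in RNA-seq was 0 under all 18 alternatives, and their adjusted p lay between 0.0728 and 1 over 170 values. Their log2 differences turned sign under at least 1 alternative for all but Apoa4, Apoa5 and Apoc2. The number of all genes called moved from 374 to 0 at an adjusted p under 0.01, to 734 when rows under 300 bases were dropped, to 1003 with limma-voom, and to 1277 with both changes together, which was chosen after seeing the data. It was 0 to 43 with 1 library left out (43 without vehicle replicate 1), a lone library being assumed to vary like the other group. With the replicate number as a block, 0 genes and 0 members were called, with 2327 genes at an unadjusted p under 0.05. Deviations of same-numbered libraries correlated at -0.022, and at 0.098 over rows of at least 300 bases. The main fit did not pair libraries by number, and whether the numbers mark pairs is not settled by these values. In GRO-seq the median of the 10 genes for GW4064 in Fxr-Flox was 0.36 centred on all rows and -0.012 against rows of like density, and for the genotypes it was 0.34 with vehicle and 0.17 with GW4064 against rows of like density. With a filter at a mean of 0.1 RPKM, rows past 2-fold numbered 944 and 668 for GW4064 in Fxr-Flox and Fxr-LKO and 885 for the genotypes with vehicle. More rows enter under that filter. For the other settings the cause was not tested. The ratios of Apoa4 stayed at 1.56 to 1.88 and at -1.47 to -1.44 for GW4064 in Fxr-Flox and Fxr-LKO, and at 3.47 to 3.79 and 0.36 to 0.47 for the genotypes with vehicle and with GW4064. Depth limits the shallow Fxr-LKO libraries most: Apom and Apoc2 there rest on 110 to 152 reads.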

Other observations

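After the values of Apoa4 were seen, rows with its GRO-seq pattern were counted. Of 10169 rows, 34 were at least 2-fold higher with GW4064 in Fxr-Flox and at least 2-fold lower with GW4064 in Fxr-LKO, and 8 of these were at least 300 bases long. Only 2 of the 8, Apoa4 and Igfbp1, had 2 RPKM or more in every GRO-seq library. Igfbp1, the insulin-like growth factor binding protein that fasting liver secretes, read 13.4 and 27.4 RPKM with vehicle and GW4064 in Fxr-Flox (906 and 1379 reads) and 42.7 and 19.9 RPKM in Fxr-LKO (1045 and 481 reads). The direction within each genotype was fixed by how the rows were counted.

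With vehicle, 3 rows of at least 300 bases were 8-fold or more higher in Fxr-LKO than in Fxr-Flox: Apoa4 (log2 ratio 3.72), Cux2 (3.89) and Nipal1 (3.79). Cux2, a homeobox transcription factor gene, read 0.063 and 0.081 RPKM in Fxr-Flox and 2.32 and 0.840 RPKM in Fxr-LKO, with vehicle and GW4064 in turn. Nipal1 read 0.10 and 0.211 RPKM in Fxr-Flox and 2.67 and 1.0 RPKM in Fxr-LKO. These rows were chosen for a high value in the Fxr-LKO vehicle library, so its excess over the Fxr-LKO GW4064 library is in part set by that choice. There is 1 library per group, so none of these differences was tested.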
